A study of Mus musculus with 45 samples.

Results

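The serum-free neural culture of male mouse embryonic stem cells (ESCs) is described here by its late libraries, taken at days 5 and 7, against its early libraries, taken at days 1 and 1.5. The rule uses the sample labels and no measured value. They are 8 of the 45 RNA-seq libraries of the series, 4 late and 4 early, with cells that came from 2iL and from SL in each group. The remaining 7 libraries used for timing hold the same culture at days 2, 2.5 and 3 from both media and the 2iL cells at day 0, and the single SL library of day 0 stands beside them.

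All cells were of the wild-type line E14tg2a, an established male ESC line on the 129/Ola background. Before differentiation they were kept either in 2iL, which is serum-free N2B27 medium with LIF and the inhibitors CHIR99021 (against Gsk3) and PD0325901 (against Mek), or in SL, which is serum with LIF. Both groups were then grown as an adherent layer on gelatin in N2B27 without inhibitors, LIF or serum, a culture that the labels call Neural. The series also followed the same cells in N2B27 with Fgf2 and ActivinA (labelled EpiSC) and as suspended aggregates in serum (labelled EB).

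ESCs that lose LIF and the inhibitors leave naive pluripotency, pass through a formative epiblast-like state and can then take up somatic fates. In N2B27, where neither serum nor added Bmp or Nodal ligands oppose it, the best known outcome is neuroectoderm, which first forms dividing Sox1+ progenitors and then neurons. Notch signalling, in which Dll and Jag ligands on a cell release the Notch receptor's intracellular part in its neighbour to act with Rbpj on Hes and Hey genes, keeps progenitors from becoming neurons. ESC cultures are also known to shed cells toward primitive endoderm, whose descendants lay down a laminin and collagen IV basement membrane.

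The deposited values are strand-specific read counts per gene. The 8 libraries held between 13577463 and 22151679 counts (median 17380144), and 17620 to 18341 genes had a read in each. The 10 genes with the most counts took 14.9% to 22.7% of a library, and mitochondrial genes took 1.65% to 2.38% in the early and 1.04% to 1.33% in the late libraries. Levels are given in CPM, read counts scaled to library size by TMM. CPM is not divided by gene length, so levels are compared between libraries and not between genes. In these libraries 3 counts correspond to 0.135 to 0.221 CPM.

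There was 1 library per medium and day, and nothing states separate cultures. The days and media of a group therefore stand in for replicates, and the spread between the 4 libraries of a group holds day and medium differences as well as error. Pairs of libraries of the same group varied at least 17.0 times more than counting noise, so none is a copy of another. Late was tested against early with edgeR's quasi-likelihood test with the medium as a block, with Benjamini-Hochberg adjustment over all genes tested and a threshold of 0.05. In bulk RNA, fewer cells of a type and less RNA per cell cannot be told apart. Below, 4 early values stand in the order 2iL day 1, 2iL day 1.5, SL day 1 and SL day 1.5, and 4 late values in the order 2iL day 5, 2iL day 7, SL day 5 and SL day 7.

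Most of the transcriptome moved. Of 14838 genes tested, 9860 passed the threshold (66.5%), with 5107 higher (34.4%) and 4753 lower (32%) in the late libraries. Counts of genes called late against early in the lists below are to be read against these shares of 34.4% and 32%. A change of at least 2-fold was called for 3205 genes that rose (21.6%) and 1971 that fell (13.3%). For 8975 genes (60.5%) all late libraries lay on one side of all early ones. The median log2 change of all genes tested was 0.015. On a principal component analysis of 13783 genes, PC1 held 55.2% of the variance and ran from -87.1 in 2iL day 1 to 99.5 in 2iL day 7, and the SL libraries ran from -54.3 at day 1 to 87.8 at day 7.

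Genes named by the size of their rise, fall, gain or loss were taken only where the late and early groups did not overlap. The largest rises on the log2 scale among well-expressed genes were those of genes nearly silent at first, for which a ratio with a counting interval is given where the early group had 3 reads or fewer in all. Pappa (ENSMUSG00000028370, chromosome 4 from 65124174 to 65357509 on the plus strand of GRCm38), a secreted protease that frees insulin-like growth factors, was at 0, 0, 0 and 0.0611 CPM early and at 16, 18.1, 28.5 and 18.1 CPM late, 1434-fold (exact 95% interval 257 to 56662) higher (edgeR adjusted p = 7.3e-06). Its early group had 1 read in 4 libraries. Hes5 (ENSMUSG00000048001, chromosome 4 from 154960923 to 154962371 on the plus strand), a Notch target that represses proneural genes, was at 0, 0.0678, 0.11 and 0 CPM and then at 34.3, 35.5, 21.6 and 16.7 CPM, 643-fold (exact 95% interval 219.8 to 3122) higher (edgeR adjusted p = 7.6e-06). Both genes were near 0 in every early library.

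Among the 12 largest rises were several genes known from neural cells. Ednrb, the endothelin receptor B, went from 0, 0.271, 0.768 and 0.183 CPM to 271, 113, 120.2 and 75.8 CPM, a log2 change of 8.81 ± 0.68 (SE, edgeR adjusted p = 4e-05). Robo2, a receptor for the guidance molecule Slit, was at 0.0477, 0.203, 0.165 and 0.183 CPM and later at 62.4, 45.9, 54 and 32.8 CPM, a change of 8.34 ± 0.34 (SE, edgeR adjusted p = 7.3e-06). In both, 2iL day 5 was the highest library. The RNA-binding protein Celf3 (437-fold (exact 95% interval 78.1 to 17315)), the basic helix-loop-helix factor Nhlh1 (381-fold (exact 95% interval 68 to 15104)), the adhesion molecule Lsamp (366-fold (exact 95% interval 65.2 to 14478)) and the teneurin Tenm2 (287-fold (exact 95% interval 79 to 2374)) rested on 1 or 2 early reads each, and their ratios have wide intervals. Acta2, smooth muscle actin, was at 0.0477, 0.339, 0.274 and 0.0611 CPM early and at 95.4, 267, 53.2 and 112 CPM late (9.51 ± 0.66 (SE, edgeR adjusted p = 2.7e-05)). Nepn, which encodes nephrocan, rose by 8.24 ± 0.82 (SE, edgeR adjusted p = 0.00011) from 0, 0, 0.439 and 0.0611 CPM to 10.5, 48, 37.8 and 60.1 CPM.

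In all 12 of the largest falls, both early libraries from 2iL were above both from SL. Slc11a1, a metal transporter best known from macrophages, was at 34, 16.8, 7.73 and 1.96 CPM early and at 0.115, 0.0584, 0.0556 and 0.142 CPM late, a log2 change of -7.15 ± 0.75 (SE, edgeR adjusted p = 0.00013). Myo1f, an unconventional myosin, went from 81.5, 44.2, 13.1 and 4.71 CPM to 0.173, 0.234, 0.39 and 0.496 CPM (-6.42 ± 0.79 (SE, edgeR adjusted p = 0.00026)). In each, 2iL day 1 was the highest library and all 4 late libraries were under 1 CPM. The homeobox genes Cphx1, Cphx2 and Cphx3 are near-identical copies that can share reads, and the 3 fell by 6.80, 6.87 and 6.94 on the log2 scale. Platr16, a non-coding transcript linked to pluripotency, fell by 6.09 (edgeR adjusted p = 1.5e-05) and Nlrp4a by 6.04 (edgeR adjusted p = 7e-05). Prss46, a serine protease gene, had 2 late reads in all and was 204-fold (exact 95% interval 56.1 to 1690) lower.

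By absolute level, the gains were led by basement membrane genes. Col4a1 (ENSMUSG00000031502, chromosome 8 from 11198423 to 11312826 on the minus strand), a collagen IV chain, was at 23.6, 31.1, 366 and 407 CPM early and at 2021, 7834, 5298 and 8823 CPM late (5.84 ± 0.89 (SE, edgeR adjusted p = 0.00073)). Col4a2, its partner chain, went from 9.49, 15.1, 171 and 199 CPM to 1015, 3965, 2658 and 4517 CPM, and the laminin chain gene Lama1 from 23.5, 36, 306 and 431 CPM to 1492, 4906, 3482 and 5248 CPM. In all 3 genes the 2iL libraries of days 1 and 1.5 were the lowest, and the SL libraries of these days lay far above them. Lamb1 (4.12 ± 0.68 (SE, edgeR adjusted p = 0.0011)), Lamc1 (2.53 ± 0.35 (SE, edgeR adjusted p = 0.00048)) and Sparc, a matrix protein that binds collagen IV (4.17 ± 0.52 (SE, edgeR adjusted p = 0.00028)), completed the 6 largest gains.

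Among the 6 largest losses in CPM were 3 heat shock genes. Hsp90aa1, a chaperone, was at 4790, 5076, 5397 and 5270 CPM and then at 1844, 1468, 1892 and 1700 CPM (-1.57 ± 0.09 (SE, edgeR adjusted p = 1.6e-05)). Hspa8 changed by -1.06 ± 0.11 (SE, edgeR adjusted p = 0.00013), Hsp90ab1 by -0.56 ± 0.11 (SE, edgeR adjusted p = 0.0019) and the mitochondrial mt-Co1 by -0.67 ± 0.16 (SE, edgeR adjusted p = 0.0071). Rex2 and Zfp600, zinc finger genes of similar sequence that may share reads, fell by 5.10 and 5.24. In all 6 the late libraries lay under the early ones, which the choice of genes required.

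**Figure D1:**
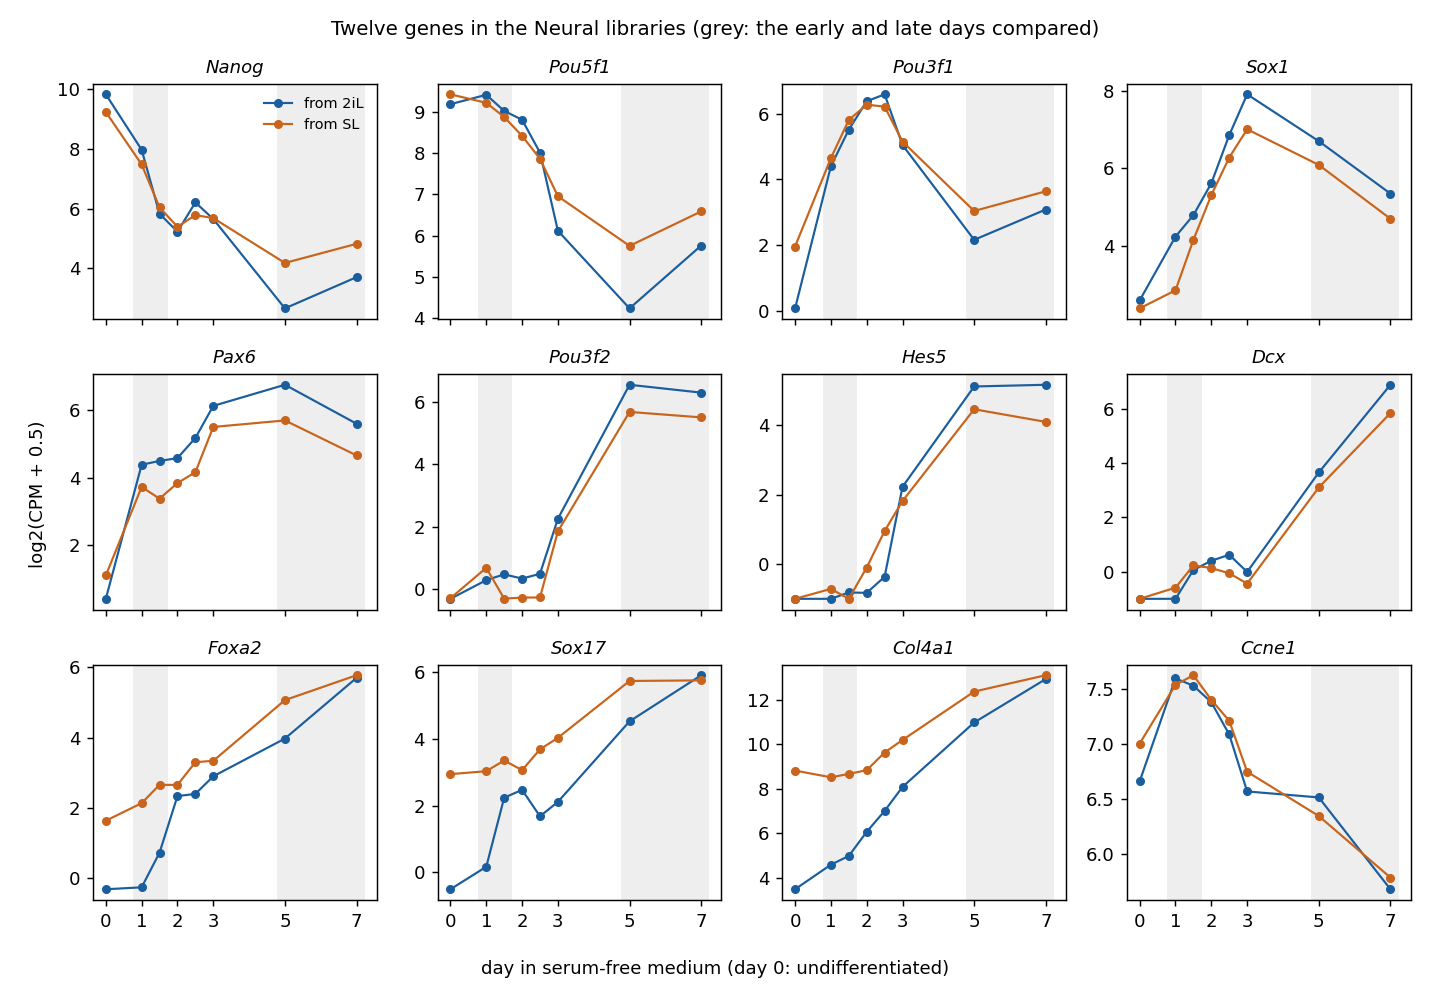
Level of 12 named genes as log2(CPM + 0.5) against the day in the Neural culture, with 1 point per library, lines that join the days of cells from 2iL and from SL, and grey bands over the early and late days. Nanog drops between days 0 and 2, Sox1 is highest at day 3, and Hes5, Dcx and Col4a1 have their higher values at days 5 and 7.

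Naive pluripotency genes fell. Of the 14 tested, none was higher and 12 were lower in the late libraries, with a median log2 change of -3.22 against 0.015 for all genes. Nanog (ENSMUSG00000012396, chromosome 6 from 122707489 to 122714633 on the plus strand), a core naive factor, started at 904 CPM from 2iL and 600.5 from SL at day 0 and was at 249.9, 56.2, 178 and 65.2 CPM early and at 5.83, 12.6, 17.6 and 27.8 CPM late (-3.21 ± 0.64 (SE, edgeR adjusted p = 0.0027)). Its levels of day 1 lay far above those of day 1.5 in both media, and every late library was lower still. Between the groups, at days 2 to 3, Nanog stood between 37 and 73.3 CPM in 2iL and so near its level of day 1.5.

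Zfp42 (Rex1), a reporter gene of the naive state, went from 394, 156, 252 and 96.7 CPM to 7.16, 11, 15.8 and 19.8 CPM (-4.08 ± 0.53 (SE, edgeR adjusted p = 0.00034)), and Nr0b1, a nuclear receptor of ESCs, from 176, 55.3, 57.6 and 18 CPM to 0.808, 0.35, 1.39 and 2.91 CPM (-5.66 ± 0.87 (SE, edgeR adjusted p = 0.00075)). Fgf4, the autocrine ligand of ESCs, went from 151, 90.6, 142 and 86.6 CPM to 2.94, 5.08, 6.45 and 15.7 CPM (-4.09 ± 0.47 (SE, edgeR adjusted p = 0.0002)). All 3 were apart between the groups, and within the late group the SL day 7 library was the highest.

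Klf4, Tfcp2l1 and Tbx3 had another course. Klf4, a reprogramming factor also used by epithelia, was at 19.4, 6.17, 19.2 and 8.5 CPM early, at 1.25 (2iL) and 4.52 (SL) at day 2.5, and at 7.27, 22.4, 18.6 and 29.8 CPM late, a log2 change of 0.52 ± 0.49 (SE, edgeR adjusted p = 0.37). Tfcp2l1 was at 279.7, 80.4, 179 and 66.8 CPM early, 20.1 and 25.7 at day 3, and 20.4, 94.1, 41 and 113 CPM late (-1.15 ± 0.64 (SE, edgeR adjusted p = 0.15)). It rose from day 5 to day 7 by 1.79 ± 0.33 (SE, edgeR adjusted p = 0.016). For these genes the groups overlapped because the level came up again after a low at days 2 to 3. Tbx3 passed the threshold (-1.02 ± 0.36 (SE, edgeR adjusted p = 0.034)) with groups that also overlapped, and without single libraries (2iL day 1, SL day 1, 2iL day 5, SL day 5 or SL day 7) its edgeR adjusted p was 0.070 to 0.12.

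Of 10 genes shared by naive and primed pluripotency, 8 were lower and none was higher. Pou5f1 (ENSMUSG00000024406, chromosome 17 from 35506018 to 35510772 on the plus strand), which encodes Oct4, was at 678, 517, 592 and 467 CPM and then at 18.4, 53.7, 53.4 and 95.5 CPM (-3.42 ± 0.43 (SE, edgeR adjusted p = 0.0003)). The germline and ESC gene Dppa2 fell from 295, 225, 259 and 202 CPM to 5.88, 9.22, 12.9 and 15.1 CPM (-4.55 ± 0.28 (SE, edgeR adjusted p = 1.9e-05)), and Tdgf1, the Nodal co-receptor Cripto, from 153, 101, 215 and 168 CPM to 3.87, 6.83, 10.2 and 20.6 CPM (-4.07 ± 0.35 (SE, edgeR adjusted p = 5.6e-05)). All late libraries were below all early ones for these 3 genes. Sox2, which neural progenitors also use, did not pass the test, with 215, 124, 167 and 106 CPM early and 152, 84.5, 104 and 75.6 CPM late (-0.56 ± 0.25 (SE, edgeR adjusted p = 0.078)), but did without 2iL day 1.5 (0.045) or 2iL day 5 (0.030). Lin28a, an RNA-binding protein that blocks let-7, gave 0.3 ± 0.29 (SE, edgeR adjusted p = 0.37). Both were lower at day 7 than at day 5, with log2 changes of -0.63 ± 0.13 (SE, edgeR adjusted p = 0.016) and -0.75 ± 0.21 (SE, edgeR adjusted p = 0.047).

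Formative and primed epiblast genes were mostly lower late, with 3 of 13 higher and 9 lower. Several peaked between the groups. Pou3f1, the epiblast and neural factor Oct6, was at 20.6, 45.3, 24.6 and 55.7 CPM early, at 96 and 73.9 CPM at day 2.5 from 2iL and SL, and at 3.98, 8.0, 7.73 and 12 CPM late (-2.23 ± 0.39 (SE, edgeR adjusted p = 0.0015)). Lef1, a Wnt transcription factor, was at 26.3, 105, 67.6 and 158 CPM early and at 8.14, 8.76, 13.6 and 12.8 CPM late (-3.02 ± 0.45 (SE, edgeR adjusted p = 0.00068)), after 167 and 148 at day 2. Both were higher at day 1.5 than at day 1 in each medium and lower than every early library by day 5. Otx2 changed by -1.99 ± 0.39 (SE, edgeR adjusted p = 0.0026) and Foxd3 by -4.07 ± 0.43 (SE, edgeR adjusted p = 0.00013). Fgf5, the marker of the formative epiblast, was highest at day 2.5 (8.86 and 7.53 CPM) and gave -0.13 ± 0.5 (SE, edgeR adjusted p = 0.83) between the groups. The 3 that rose were the claudin Cldn6 (4.75 ± 0.64 (SE, edgeR adjusted p = 0.00041)), the activin antagonist Fst (4.58 ± 0.25 (SE, edgeR adjusted p = 1.3e-05)) and the zinc finger gene Sall2 (1.36 ± 0.25 (SE, edgeR adjusted p = 0.0019)).

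All 16 neural progenitor genes rose, with a median log2 change of 3.0. Their summed level went from between 86.1 and 139.9 CPM in the early to between 610.2 and 1242 CPM in the late libraries. Sox1 (ENSMUSG00000096014, chromosome 8 from 12395295 to 12400126 on the plus strand), the earliest specific neuroectoderm factor, was at 18.4, 27.3, 6.75 and 17.4 CPM early and at 104, 40.3, 67.6 and 25.5 CPM late (1.81 ± 0.44 (SE, edgeR adjusted p = 0.0071)). The groups overlapped, since SL day 7 lay under 2iL day 1.5. The highest values were those of day 3, at 239.9 CPM from 2iL and 128 CPM from SL, and Sox1 fell from day 5 to day 7 (-1.36 ± 0.2 (SE, edgeR adjusted p = 0.0081)).

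Pax6, a regulator of neural progenitors, was at 20.3, 22.1, 12.7 and 9.84 CPM and later at 108, 48.1, 51.5 and 24.7 CPM (1.82 ± 0.3 (SE, edgeR adjusted p = 0.001)), and it also fell from day 5 to day 7 (-1.09 ± 0.14 (SE, edgeR adjusted p = 0.0059)). Nes, the intermediate filament nestin, went from 14.4, 11.2, 6.96 and 11.7 CPM to 346, 251, 220.5 and 165 CPM (4.46 ± 0.21 (SE, edgeR adjusted p = 7.6e-06)). Both were highest in 2iL day 5, and the groups did not overlap. The POU factors Pou3f2 and Pou3f3 rose by 6.42 ± 0.29 (SE, edgeR adjusted p = 7.3e-06) and 6.31 ± 0.37 (SE, edgeR adjusted p = 1.4e-05), with all early libraries at or under 1.10 CPM.

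Fabp7, a lipid carrier of radial glia, was at 0, 0.0678, 0.0548 and 0.0611 CPM early, which is 3 reads in all, and at 5.88, 21.2, 8.74 and 23.3 CPM late, 335-fold (exact 95% interval 114 to 1627) higher (edgeR adjusted p = 9.4e-05). In contrast to Sox1 and Pax6 it was higher at day 7 than at day 5, by 1.71 ± 0.41 (SE, edgeR adjusted p = 0.028). Sox9, which comes up as progenitors turn to radial glia, was at 0, 0.0678, 0 and 0.306 CPM and then at 2.71, 6.77, 1.89 and 5.53 CPM, and it rose from day 5 to day 7 as well (1.45 ± 0.39 (SE, edgeR adjusted p = 0.042)). In both media the order of days 5 and 7 was thus opposite for Sox1 and for Fabp7.

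**Figure D2:**
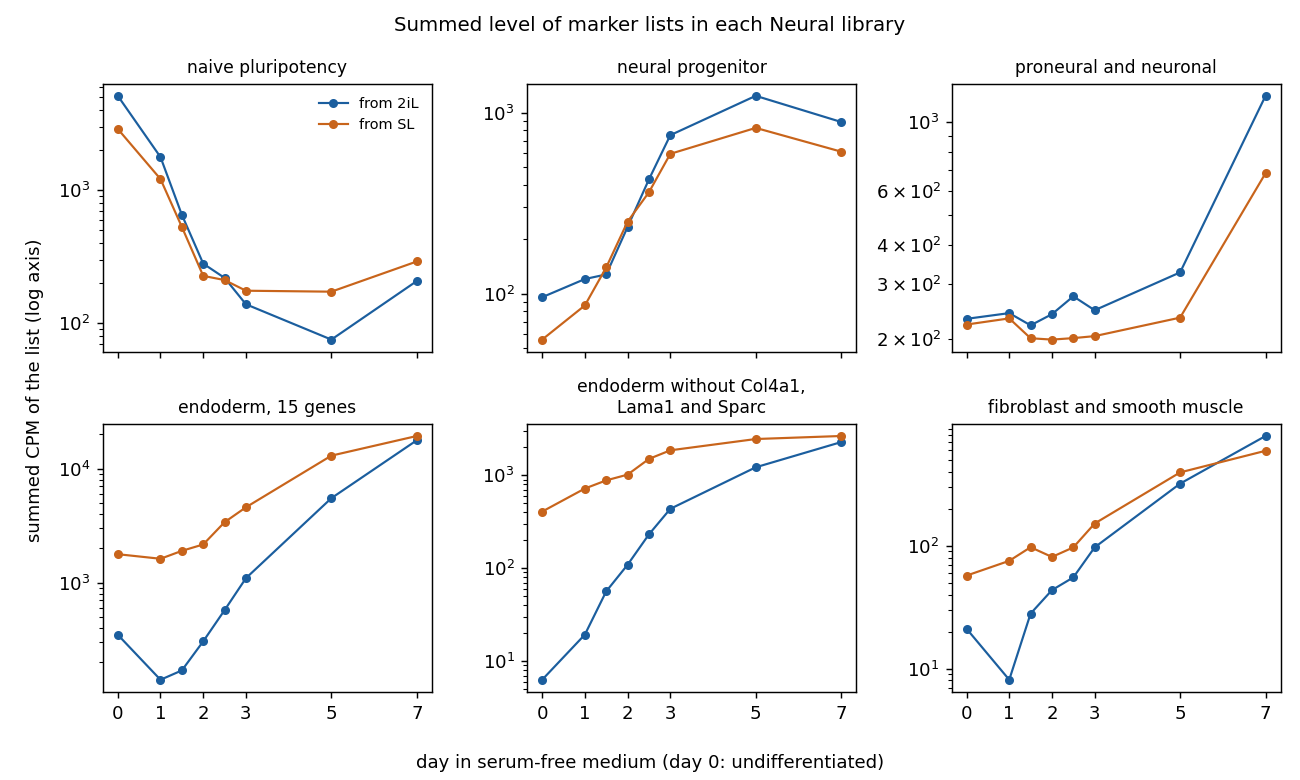
Summed CPM of the genes of 6 sets, on a log axis, against the day in the Neural culture, with 1 point per library and lines that join the days of cells from 2iL and from SL. The neural progenitor sums lie between 86.1 and 139.9 CPM early and between 610.2 and 1242 CPM late, and the endoderm sums between 140.2 and 1899 early and between 5509 and 19366 late.

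Most Notch pathway genes rose, among them receptors, ligands and targets. Of 18 tested, 15 were higher and 1 was lower, with a median log2 change of 2.06. The summed level of the list was 571.2 to 846.0 CPM early and 771.9 to 997.7 CPM late, so early and late sums overlapped. Because Hes5 and Lfng carry a result of this group, their promoters are shown first, with the letters TGGGAA, the core of the Rbpj site, on either strand in capitals. They are 250 bases up to the annotated RefSeq start, from RefSeq on GRCm38.p6, printed 5′ to 3′ on the gene's strand.
Hes5 (chr4:154960673-154960922, plus strand): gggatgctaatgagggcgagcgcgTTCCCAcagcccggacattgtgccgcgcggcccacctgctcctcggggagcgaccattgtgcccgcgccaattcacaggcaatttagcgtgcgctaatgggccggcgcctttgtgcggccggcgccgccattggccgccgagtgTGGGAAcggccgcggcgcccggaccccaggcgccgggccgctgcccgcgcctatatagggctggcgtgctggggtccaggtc
Lfng (chr5:140607091-140607340, plus strand): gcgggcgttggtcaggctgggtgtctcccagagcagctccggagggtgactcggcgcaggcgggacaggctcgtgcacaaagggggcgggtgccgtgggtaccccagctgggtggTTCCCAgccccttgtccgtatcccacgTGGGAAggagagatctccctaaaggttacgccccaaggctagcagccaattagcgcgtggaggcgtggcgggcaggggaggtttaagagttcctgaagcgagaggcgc
Each holds the motif at 2 places, at 82 and 226 bases before the start in Hes5 and at 108 and 135 bases in Lfng, in both cases once per strand. Windows of 300 bases, 250 before to 50 after a start, were found for 14 of the 19 Notch genes, and 5 of their 17 windows (29.4%) held TGGGAA, against 25.6% of all 32851 windows. A match of letters is a description and no binding was measured.

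Among receptors, Notch1 was at 53.4, 43.6, 53.7 and 56 CPM and then at 130.2, 141, 92.5 and 104 CPM (1.17 ± 0.15 (SE, edgeR adjusted p = 0.0003)), and Notch3 rose by 1.82 ± 0.25 (SE, edgeR adjusted p = 0.00042). Of the ligands, Jag1 was at 10.7, 11.3, 9.21 and 17.5 CPM early and at 93.4, 60.3, 55.2 and 35.2 CPM late (2.29 ± 0.31 (SE, edgeR adjusted p = 0.00042)). Both genes were apart between the groups. Dll3, a ligand-like protein of committed neuronal precursors, rose by 2.72 ± 0.57 (SE, edgeR adjusted p = 0.0035), whereas Dll1, the main ligand of neural precursors, gave 0.9 ± 0.39 (SE, edgeR adjusted p = 0.068) (0.025 without SL day 1.5), with 70.2 CPM already reached at day 2 from 2iL.

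Targets and feedback genes moved most. Hes5, with the values given above, was at 4.19 and 3.03 CPM at day 3 from 2iL and SL and so came up between days 2.5 and 5. Nrarp, a feedback inhibitor that Notch itself induces, was at 1.43, 0.678, 1.21 and 1.96 CPM and then at 42.6, 55, 30.9 and 28.8 CPM (4.85 ± 0.33 (SE, edgeR adjusted p = 2.6e-05)). Lfng, a glycosyltransferase that tunes Notch to its ligands, went from 1.0, 2.24, 1.59 and 3.3 CPM to 27.6, 20.2, 19.3 and 11.1 CPM (3.27 ± 0.42 (SE, edgeR adjusted p = 0.00031)). For both, every late library was well above every early one. Hey1 rose by 4.23 ± 0.44 (SE, edgeR adjusted p = 0.00013) and Hes1 by 2.7 ± 0.25 (SE, edgeR adjusted p = 8.5e-05). Rbpj itself, the DNA-binding partner of Notch, fell from 648, 343, 439 and 265 CPM to 128, 116, 125 and 128 CPM (-1.74 ± 0.24 (SE, edgeR adjusted p = 0.00049)), the only called fall among the 18.

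Neuronal genes came later than progenitor genes. Of 28 proneural and neuronal genes tested, 23 were higher, 1 was lower and 4 did not pass, with a median log2 change of 3.96. The promoters of Elavl3, a neuronal RNA-binding protein, and of Dll3 are shown since these genes rose and their windows hold CAGCTG, an E-box of the kind that proneural factors bind (in capitals; the sequence reads the same on both strands).
Elavl3 (chr9:22052024-22052273, minus strand): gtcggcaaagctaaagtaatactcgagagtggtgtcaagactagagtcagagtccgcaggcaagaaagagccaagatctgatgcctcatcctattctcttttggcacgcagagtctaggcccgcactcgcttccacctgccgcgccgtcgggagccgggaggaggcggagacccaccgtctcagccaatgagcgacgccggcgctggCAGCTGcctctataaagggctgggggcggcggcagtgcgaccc
Dll3 (chr7:28301786-28302035, minus strand): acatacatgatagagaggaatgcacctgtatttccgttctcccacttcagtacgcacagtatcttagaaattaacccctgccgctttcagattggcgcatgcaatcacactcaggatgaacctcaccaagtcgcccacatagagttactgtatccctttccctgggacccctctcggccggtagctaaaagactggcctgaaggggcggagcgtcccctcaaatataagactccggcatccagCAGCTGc
The E-box starts 43 bases before the start in Elavl3 and 7 bases before it in Dll3. CAGCTG was in 8 of 26 windows of the neuronal list (30.8%), in 7 of the 17 Notch windows (41.2%) and in 16.3% of all windows. For comparison it was also in 5 of 12 windows of the endoderm list (41.7%). TGGGAA was in 4 of the 26 neuronal windows (15.4%). These 4 promoters were picked for print after the search.

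Among proneural factors, which commit a progenitor to a neuron, Neurog2 had 2 early reads and was at 8.48, 11.9, 4.23 and 3.47 CPM late, 251-fold (exact 95% interval 69.2 to 2082) higher (edgeR adjusted p = 3.2e-05). Neurod4, which follows it, was at 0, 0, 0.165 and 0.489 CPM early and at 15.7, 32.5, 11.2 and 26.2 CPM late (7.04 ± 0.77 (SE, edgeR adjusted p = 0.00016)). In both, all late libraries were above all early ones.

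Genes of young neurons separated day 7 from day 5. Dcx, doublecortin, which binds microtubules in migrating neurons, was at 0, 0.543, 0.165 and 0.672 CPM early and at 12.1, 117, 8.07 and 56.8 CPM late (7.17 ± 1.22 (SE, edgeR adjusted p = 0.0013)). The day 7 libraries were far above those of day 5 in both media, by 3.09 ± 0.29 (SE, edgeR adjusted p = 0.003). Nefl, the light neurofilament, went from 9.45, 8.48, 6.8 and 5.99 CPM to 26.5, 117, 26.7 and 67.1 CPM and rose again from day 5 to day 7 (1.77 ± 0.18 (SE, edgeR adjusted p = 0.003)). Elavl3, whose promoter is shown above, was at 3.05, 2.58, 4.39 and 3.91 CPM and 9.23, 35.5, 4.95 and 21 CPM, with a change of 2.32 ± 0.61 (SE, edgeR adjusted p = 0.0099), and in SL day 5 it was still close to the early level. Tubb3, neuronal tubulin, was at 41.5, 29, 49.1 and 33.3 CPM and 57.4, 203, 36.9 and 116 CPM. It passed the threshold (1.4 ± 0.51 (SE, edgeR adjusted p = 0.038)) with groups that overlapped, since the SL day 5 library lay within the early range, and its edgeR adjusted p was 0.075 to 0.14 without any of 2iL day 1.5, 2iL day 1, SL day 1.5, 2iL day 7 or SL day 7.

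In total 17 of the 28 rose from day 5 to day 7 and none fell. Of all genes tested, 5.77% were higher and 6.16% lower at day 7. The calls between these days depended on single libraries, as given below. Mapt, which encodes tau, was at 8.11, 2.1, 6.69 and 1.65 CPM and 2.02, 15.6, 1.56 and 7.09 CPM. Its change between the groups was 0.43 ± 0.8 (SE, edgeR adjusted p = 0.65) and that from day 5 to day 7 2.65 ± 0.31 (SE, edgeR adjusted p = 0.0039). Stmn2, a growth-associated protein of neurons, was the 1 member lower late, with 135, 92.9, 105 and 61.6 CPM early and 21.2, 63.6, 16.9 and 35.6 CPM late (-1.54 ± 0.39 (SE, edgeR adjusted p = 0.009)), and it still rose from day 5 to day 7 (1.36 ± 0.14 (SE, edgeR adjusted p = 0.003)). Neurod1 (1.07 ± 0.51 (SE, edgeR adjusted p = 0.094), 0.018 without SL day 5), Ina (-0.27 ± 0.58 (SE, edgeR adjusted p = 0.69)) and Ebf1 (0.33 ± 0.46 (SE, edgeR adjusted p = 0.55)) did not pass the threshold.

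**Figure D3:**
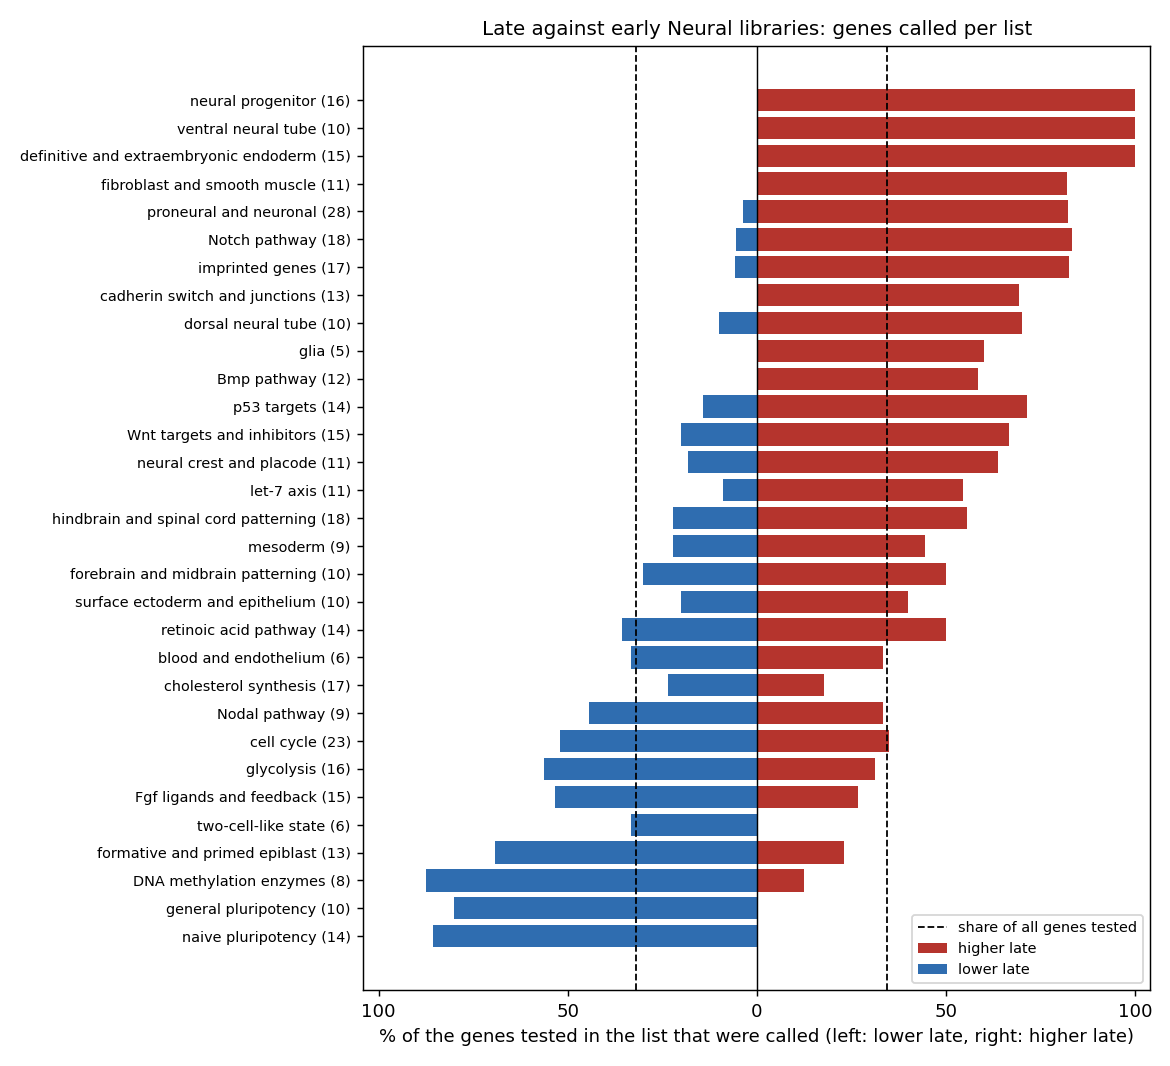
Genes of each list called higher (right) and lower (left) in the late libraries, in percent of the genes of the list that were tested, with the number tested in brackets after the list's name and the share of all genes tested as dashed lines. With the medium as a block, neural progenitor, ventral neural tube and endoderm genes were all higher, and none of the 14 naive genes was.

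Genes that mark positions along the head to tail axis went both ways. Of 19 forebrain and midbrain genes, 9 did not pass the filter on low counts. Of the others, 5 were higher and 3 lower, against 34.4% and 32% of all genes tested. Six3 and Fezf1 had at most 0.117 CPM in any library. Lhx5 rose from 0, 0.0678, 0.165 and 0.0611 CPM to 0.404, 3.79, 1.0 and 2.76 CPM (4.68 ± 0.99 (SE, edgeR adjusted p = 0.0036)). En2, a midbrain-hindbrain gene, fell by 1.54 ± 0.22 (SE, edgeR adjusted p = 0.00055) and Pax8 fell by 2.83 ± 0.57 (SE, edgeR adjusted p = 0.003). Without the medium as a block 2 were higher and 2 lower, and 3 were higher without 2iL day 1.5.

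Of 18 hindbrain and spinal cord genes tested, 10 were higher and 4 lower, against 34.4% and 32% of all genes tested. Hoxb2, which patterns the hindbrain, was at 0.572, 6.04, 0.768 and 4.71 CPM and then at 39.8, 21.2, 29.3 and 13.7 CPM (3.13 ± 0.73 (SE, edgeR adjusted p = 0.0057)), and Hoxa2 rose by 3.66 ± 0.46 (SE, edgeR adjusted p = 0.00028). Both had higher values at day 5 than at day 7 in each medium. Egr2 (Krox20), which marks hindbrain segments, was at 14.9 and 20 CPM at day 3 from 2iL and SL and at 3.29, 1.34, 7.96 and 2.2 CPM late, against 0.0954, 0, 0.11 and 0.0611 CPM early (5.55 ± 0.72 (SE, edgeR adjusted p = 0.00032)). Hoxb1 had a pulse that the groups did not show, with 22.6 and 22.9 CPM at day 3, 0.191, 5.7, 1.1 and 6.11 CPM early and 1.5, 1.05, 3.56 and 2.48 CPM late (-0.68 ± 0.86 (SE, edgeR adjusted p = 0.5)). Gbx2, which early on is also a pluripotency-linked factor, was highest at day 2.5 (178 and 132 CPM) and fell between the groups (-2.85 ± 0.26 (SE, edgeR adjusted p = 7.7e-05)). The more posterior Hoxb5, Hoxb6 and Hoxc8 stayed at or under 0.475 CPM in every library.

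Ventral neural tube genes were all higher, 10 of 10 tested, with a median log2 change of 4.15. Without the medium as a block 7 were higher. Only day 5 against day 1.5 gave 7 and only day 7 against day 1 gave 8. Dbx1, of interneuron progenitors, had 3 early reads and was at 32.1, 14.6, 14.9 and 8.86 CPM late, 422-fold (exact 95% interval 144 to 2050) higher (edgeR adjusted p = 1.9e-05), with the lowest late value in SL day 7. Nkx6-1 was at 0, 0.0678, 0.274 and 0 CPM and then at 6.69, 20.9, 8.07 and 18.3 CPM (7.21 ± 0.82 (SE, edgeR adjusted p = 0.00019)). Shh, the ventral signal, had no read in the early libraries and was at 1.15, 7.65, 0.501 and 5.1 CPM late, which is at least 81.7-fold higher against a floor of 3 counts over the early group (edgeR adjusted p = 0.01). Ptch1 (1.2 ± 0.11 (SE, edgeR adjusted p = 8.8e-05)) and Gli1 (1.01 ± 0.29 (SE, edgeR adjusted p = 0.016)), targets of hedgehog ligands such as Shh, were higher too. Gli1 had overlapping groups and an edgeR adjusted p of 0.051 without 2iL day 1.5 and 0.050 without SL day 5. Ihh, another hedgehog ligand, also rose, with its values below, and the part of each ligand was not tested. Foxa2, which the floor plate and endoderm both use, was at 0.334, 1.15, 3.89 and 5.81 CPM and 15.2, 51.6, 33.1 and 54.4 CPM, and Nkx2-1, of the ventral forebrain, at no more than 0.0611 CPM.

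Dorsal genes rose in 7 of 10 and fell in 1, while the summed level of the list was 87.3 to 125.1 CPM early and lower, at 39.0 to 63.9 CPM, in every late library. Pax3, of dorsal progenitors, went from 0, 0, 0.0548 and 0.183 CPM to 8.37, 3.38, 11 and 2.83 CPM (6.68 ± 0.84 (SE, edgeR adjusted p = 0.00029)). Pax7 rose by 3.43 ± 0.55 (SE, edgeR adjusted p = 0.00093). Wnt1 had no early read and was at 1.39, 0.467, 5.95 and 1.56 CPM late, at least 56.7-fold higher against the same floor (edgeR adjusted p = 0.003). For Pax3 and Wnt1 the day 5 library was above the day 7 library in each medium. Atoh1 and the roof plate gene Gdf7 did not pass the filter. Without the block 4 genes were higher, and 2 were lower without SL day 1, 2iL day 5 or SL day 5.

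Of 14 retinoic acid pathway genes tested, 7 were higher and 5 lower, against 34.4% and 32% of all genes tested. Crabp1, a carrier of retinoic acid, was at 9.4, 6.65, 8.39 and 5.75 CPM and then at 919, 242, 534 and 141 CPM (5.87 ± 0.61 (SE, edgeR adjusted p = 0.00013)), after 1164 and 581 CPM at day 3. Crabp2 rose by 4.33 ± 0.47 (SE, edgeR adjusted p = 0.00016). Both were lower at day 7 than at day 5 (-1.89 ± 0.45 (SE, edgeR adjusted p = 0.035) and -1.54 ± 0.17 (SE, edgeR adjusted p = 0.0035)). The degrading enzymes Cyp26a1 and Cyp26b1 rose by 2.83 ± 0.37 (SE, edgeR adjusted p = 0.00034) and 5.89 ± 0.31 (SE, edgeR adjusted p = 1e-05), while the synthesizing enzyme Aldh1a2 fell by 2.55 ± 0.34 (SE, edgeR adjusted p = 0.00038). Rarg, a receptor abundant in ESCs, fell from 302, 288, 266 and 237 CPM to 12.9, 13.2, 20 and 25 CPM (-3.98 ± 0.23 (SE, edgeR adjusted p = 1.4e-05)), and Stra8, which retinoic acid induces in germ cells, from 78.8, 108, 86.2 and 82.7 CPM to 1.56, 0.408, 3.73 and 0.638 CPM (-5.8 ± 0.53 (SE, edgeR adjusted p = 7.7e-05)). In both, no late library reached an early one.

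Endoderm genes rose, and the full list held more of the late counts than the neural progenitor list. Sums of different lists also depend on gene length, which CPM does not correct. All 15 tested were higher, with a median log2 change of 4.17, and their summed level went from between 140.2 and 1899 to between 5509 and 19366 CPM. Without the matrix genes Col4a1, Lama1 and Sparc, which other cells also make, the sums were 19.3 to 883.1 early and 1221 to 2653 late. In 2iL day 5 the remaining sum of 1221 CPM lay just under the neural progenitor sum of 1242 CPM. It lay above the neural progenitor sum in every other late library. Cubn alone, at 821, 1478, 1597 and 1716 CPM, made up most of the reduced sum in each late library. The order of the sums therefore does not speak for the list as a whole. Cubn (ENSMUSG00000026726, chromosome 2 from 13276338 to 13491813 on the minus strand), the uptake receptor cubilin of visceral endoderm, was at 4.29, 18.7, 535 and 662 CPM early and at 821, 1478, 1597 and 1716 CPM late (3.99 ± 1.28 (SE, edgeR adjusted p = 0.024)). Its early libraries split by medium, with both SL libraries far above both 2iL libraries, and the SL library of day 0 was already at 260.3 CPM against 1.51 from 2iL. Only day 5 against day 1.5 gave 10 of the 15 higher and only day 7 against day 1 gave 9, where 15 of the 16 neural progenitor genes were higher in each. Without the medium as a block 12 of the 15 passed, and the log2 change of Cubn was 2.21 (edgeR adjusted p = 0.14), while without the 2iL day 1.5 library it was 2.95 (edgeR adjusted p = 0.096).

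Dab2, the adaptor that works with cubilin, had the same split, with 1.86, 4.75, 97.6 and 126 CPM early and 241, 470.4, 548 and 541 CPM late (4.32 ± 1.0 (SE, edgeR adjusted p = 0.0057)). Sox17, an endoderm transcription factor, was at 0.62, 4.21, 7.68 and 9.72 CPM and 22.6, 59.7, 52.9 and 53.6 CPM (3.32 ± 0.58 (SE, edgeR adjusted p = 0.0014)). Of the secreted products of visceral endoderm, Ttr went from 0.0477, 0.0678, 2.08 and 2.51 CPM to 17, 56.1, 49.4 and 70.5 CPM (5.7 ± 0.72 (SE, edgeR adjusted p = 0.0003)) and Afp from 0.0954, 0.136, 0.548 and 0.795 CPM to 4.85, 16.3, 34.4 and 54.7 CPM (6.17 ± 0.51 (SE, edgeR adjusted p = 4.9e-05)). Hnf4a, their nuclear receptor regulator, rose by 3.35 ± 0.69 (SE, edgeR adjusted p = 0.0033). In Gata6, Sox7 and Amn the groups overlapped, each because the SL early libraries reached the range of 2iL day 5. Gata6 was at 10.3, 24.7, 54 and 54.2 CPM and 38.1, 99.7, 82.5 and 106 CPM (1.39 ± 0.42 (SE, edgeR adjusted p = 0.018)).

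Genes of other lists that primitive endoderm is known to use were also higher. Gata4 was at 0.382, 1.56, 11 and 13.6 CPM and then at 32, 112, 68 and 103 CPM (4.18 ± 0.81 (SE, edgeR adjusted p = 0.0024)) and is the largest value of the mesoderm list. Pdgfra, counted in the fibroblast list, was at 2.24, 16.8, 64.2 and 83.4 CPM and 95.2, 259.5, 254 and 332 CPM (3.08 ± 0.73 (SE, edgeR adjusted p = 0.0064)). Both repeated the order of Cubn among the early libraries, SL above 2iL. The keratins Krt8 (5.29 ± 0.63 (SE, edgeR adjusted p = 0.00023)), Krt18 (5.63 ± 0.58 (SE, edgeR adjusted p = 0.00013)) and Krt19 (6.34 ± 0.65 (SE, edgeR adjusted p = 0.00013)), of simple epithelia, rose from at most 24.8 CPM to between 15 and 613 CPM. The part of endoderm cells in the results on neural genes was not tested.

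Other cell types were less visible. Of 9 mesoderm genes tested, 4 were higher and 2 lower, against 34.4% and 32% of all genes tested. The summed levels were 18.5 to 31.2 CPM early and 53.5 to 145.3 late, and Gata4 made up most of the late sums. The defining primitive streak genes were near 0, with T between 0.288 and 0.987 CPM in all 8 libraries (-0.26 ± 0.45 (SE, edgeR adjusted p = 0.63)), Mesp1 at no late read and Mixl1 at no more than 0.425 late. Eomes fell by 0.67 ± 0.18 (SE, edgeR adjusted p = 0.011), and Mesp2, the other gene called lower, was lost in 6 of the 8 fits that left out 1 library. Heart and muscle actin Actc1 had 2 early reads and was at 2.94, 17.1, 1.33 and 4.61 CPM late, 229-fold (exact 95% interval 62.9 to 1895) higher.

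Of 11 fibroblast and smooth muscle genes, 9 rose, with sums of 8.1 to 97.2 CPM early and 320.2 to 782.1 late. Acta2 and Tagln (7.17 ± 0.36 (SE, edgeR adjusted p = 9e-06)), of the contractile apparatus, took the largest part beside Pdgfra, and the fibroblast genes Lum (at most 0.173 CPM) and Dcn (-0.34 ± 0.96 (SE, edgeR adjusted p = 0.76)) did not follow. For Dcn the sign of the change turned when only day 7 was set against day 1 (0.286 and 0.0548 CPM at day 1). Col1a1 rose by 4.09 ± 0.84 (SE, edgeR adjusted p = 0.0031) and Col3a1 by 5.24 ± 0.85 (SE, edgeR adjusted p = 0.001). Of blood and endothelium genes, 2 of 6 were higher (1 without 2iL day 1.5) and 2 lower, against 34.4% and 32% of all genes tested. The sums were 75.9 to 130.2 early and 27.3 to 68.5 late, with Ptprc and Emcn at 0 in 7 of the 8 libraries. Cdh5, VE-cadherin, was higher by 4.97 ± 0.83 (SE, edgeR adjusted p = 0.0012). Of 5 glial genes tested, 3 were higher and none lower, against 34.4% and 32% of all genes tested. With 1 library left out only 2 were higher, except without 2iL day 5. Aqp4, a water channel of astrocytes, had 1 early read and was at 2.08, 0.992, 1.5 and 1.06 CPM late, 100.4-fold (exact 95% interval 17.6 to 4005) higher (edgeR adjusted p = 0.00021), and the myelin gene Mbp rose by 1.68 ± 0.35 (SE, edgeR adjusted p = 0.0035). S100b was at no read and Gfap at most 0.117 CPM late, with list sums of 13.1 to 26.2 and 33.0 to 37.3 CPM.

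Of 10 surface ectoderm and epithelial genes tested, 4 were higher and 2 lower, against 34.4% and 32% of all genes tested. The sums of the list were 349.3 to 478.6 early and 411.4 to 1495 late. Without 2iL day 7, 4 were lower. The epidermal genes Krt5 and Krt14 were at most 0.274 CPM in any library. Of 11 neural crest and placode genes, 7 rose and 2 fell, with sums of 35.0 to 52.5 and 62.8 to 96.5 CPM. Sox10, which defines migrating crest, was at no more than 0.329 CPM. The parts of these cell types in the results were not tested.

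A set of genes of the rare state of ESCs that resembles the embryo after its first cleavage separated the early libraries by medium. Zscan4c, whose near-identical relatives can share its reads, was at 15, 25.4, 369 and 483 CPM early and at 33.1, 16.4, 44.2 and 27.2 CPM late (-1.68 ± 0.87 (SE, edgeR adjusted p = 0.12)). Both early libraries from SL stood far above both from 2iL, and the late ones were close to the latter. In the list, 2 of 6 genes were called lower and none higher, with sums of 45.6 to 1364 early and 44.0 to 126.1 late, with Gm5662 (-3.52 ± 0.45 (SE, edgeR adjusted p = 0.00032)) and Zfp352 (-1.88 ± 0.68 (SE, edgeR adjusted p = 0.038)) as the 2. The number lower was 6 without 2iL day 1 or without 2iL day 5, and 1 without any of 2iL day 1.5, SL day 1, SL day 1.5, SL day 5 or SL day 7. Without the block it was 4, and Zscan4c was then at -2.88 (edgeR adjusted p = 0.034).

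Adhesion genes changed toward N-cadherin without a called loss of E-cadherin. Cdh2, N-cadherin, went from 5.77, 11.7, 8.61 and 17.1 CPM to 279, 119.6, 148 and 67.5 CPM (3.79 ± 0.51 (SE, edgeR adjusted p = 0.00042)), and it was higher at day 5 than at day 7 in both media. Cdh1, E-cadherin, was at 253, 227, 294 and 286 CPM early, at 65.7 and 122 CPM at day 3, and was at 66.3, 174, 138 and 244 CPM late (-0.79 ± 0.31 (SE, edgeR adjusted p = 0.051), and 0.022 to 0.040 without 2iL day 5, 2iL day 7 or SL day 7), with a rise from day 5 to day 7 of 1.1 ± 0.22 (SE, edgeR adjusted p = 0.018). In the list of 13 tested, 9 were higher and none was lower, or 1, Cdh1, without those libraries. Cdh6, also of epithelia, rose by 5.57 ± 0.68 (SE, edgeR adjusted p = 0.00027), Cdh11 by 4.6 ± 0.23 (SE, edgeR adjusted p = 7.6e-06) and the transcriptional repressor Zeb2 by 3.45 ± 0.48 (SE, edgeR adjusted p = 0.00046).

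Signalling genes moved by pathway. In the Fgf list, 4 of 15 were higher and 8 lower, against 34.4% and 32% of all genes tested. Spry4, a feedback inhibitor that Fgf signalling induces, went from 90.2, 61.2, 127 and 112 CPM to 6.06, 11.7, 10.8 and 13.9 CPM (-3.17 ± 0.23 (SE, edgeR adjusted p = 3.3e-05)), and the Fgf-responsive Etv4 from 159, 90.8, 89 and 63.5 CPM to 3.23, 8.7, 7.9 and 12.1 CPM (-3.64 ± 0.45 (SE, edgeR adjusted p = 0.00026)). Both were lower in every late library. Fgf15, expressed in neural progenitors, rose by 3.25 ± 0.47 (SE, edgeR adjusted p = 0.00058) with its highest 2iL value at day 3 (71.7 CPM), and the receptor Fgfr3, of ventricular progenitors, rose by 4.74 ± 0.53 (SE, edgeR adjusted p = 0.00018).

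Of 9 Nodal pathway genes, 3 were higher and 4 lower, against 34.4% and 32% of all genes. The antagonist Fst, with its value above, and the receptor Acvr2b (0.81 ± 0.18 (SE, edgeR adjusted p = 0.0045)) were among those that rose. Nodal fell by 3.58 ± 0.29 (SE, edgeR adjusted p = 4.6e-05), its relative Gdf3 fell by 4.11 ± 0.24 (SE, edgeR adjusted p = 1.4e-05) and Foxh1, the transcription factor of the pathway, fell by 2.62 ± 0.21 (SE, edgeR adjusted p = 4.3e-05).

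In the Bmp list, 7 of 12 were higher and none was lower. Id1, a direct Bmp target, was at 4.1, 1.08, 3.67 and 2.26 CPM and then at 61.7, 52.4, 59.3 and 38.2 CPM (4.22 ± 0.36 (SE, edgeR adjusted p = 6.1e-05)), and Id2 went from 1.91, 2.78, 2.8 and 5.44 CPM to 70.5, 58, 64.3 and 48.1 CPM (4.26 ± 0.3 (SE, edgeR adjusted p = 2.9e-05)). Groups did not overlap in either. The ligands Bmp2 and Bmp7 rose by 4.35 ± 0.69 (SE, edgeR adjusted p = 0.00089) and 2.87 ± 0.39 (SE, edgeR adjusted p = 0.00042) and the antagonist Nog by 4.24 ± 0.43 (SE, edgeR adjusted p = 0.00011). Bmp4 (-0.44 ± 0.54 (SE, edgeR adjusted p = 0.49)) and Smad6 (0.02 ± 0.31 (SE, edgeR adjusted p = 0.95)) did not pass the test.

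Of 15 Wnt genes tested, 10 rose and 3 fell. The secreted inhibitors Sfrp1 and Sfrp2 rose by 3.44 ± 0.36 (SE, edgeR adjusted p = 0.00014) and 3.7 ± 0.42 (SE, edgeR adjusted p = 0.00019), with Sfrp1 at 10.6, 7.19, 17.7 and 12.2 CPM early and 194, 109.6, 130.3 and 78.5 CPM late. Axin2, the general Wnt target, gave 0.2 ± 0.33 (SE, edgeR adjusted p = 0.61). Notum, a Wnt inactivator, fell by 4.53 ± 0.52 (SE, edgeR adjusted p = 0.00019) from 46, 26.6, 9.16 and 5.81 CPM. Its 2iL libraries were the highest early ones, and all 4 late libraries were under 1 CPM.

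Of 23 cell cycle genes, 12 were lower and 8 higher, against 32% and 34.4% of all genes tested. Ccne1, a cyclin of S phase entry, went from 194, 185, 186 and 198 CPM to 91, 50.7, 80.8 and 54.6 CPM (-1.45 ± 0.19 (SE, edgeR adjusted p = 0.00031)), and the mitotic cyclin Ccnb1 fell by 0.9 ± 0.11 (SE, edgeR adjusted p = 0.00027). Ccnd2, a cyclin that links growth signals to the cycle, rose from 44.6, 20.6, 17.5 and 12.8 CPM to 523, 278, 352 and 189.8 CPM (3.89 ± 0.36 (SE, edgeR adjusted p = 8.1e-05)). None of these overlapped between the groups. The cycle inhibitor Cdkn1a (p21) rose by 2.28 ± 0.16 (SE, edgeR adjusted p = 2.5e-05), and Mki67 gave 0.09 ± 0.1 (SE, edgeR adjusted p = 0.45). From day 5 to day 7, 12 of the genes fell and 1 rose, where 6.16% of all genes tested fell and 5.77% rose. Among 14 p53 target genes, of which Cdkn1a is 1, 10 were higher and 2 lower, with Ccng1 at 334, 342, 329.8 and 313 CPM and 1293, 888, 908 and 640.5 CPM (1.48 ± 0.16 (SE, edgeR adjusted p = 0.00016)), Btg2 higher by 2.46 ± 0.19 (SE, edgeR adjusted p = 3.8e-05) and Bax lower (-0.72 ± 0.08 (SE, edgeR adjusted p = 0.00016)). Leaving out any library other than SL day 1.5 or SL day 7 left 1 of the 2 lower.

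Metabolic genes went both ways, beside shares of 34.4% higher and 32% lower among all genes tested. Of 17 cholesterol synthesis genes, 3 were higher and 4 lower, with a median log2 change of 0.04, and 5 were higher and 2 lower without 2iL day 7, and 2 lower without 2iL day 1.5 or SL day 7. Of 16 glycolysis genes, 5 were higher and 9 lower with a median of -0.35, of which 2 fell at least 2-fold and none rose as much. Among them Pdk1, which holds pyruvate back from mitochondria, fell from 187, 249, 218 and 209 CPM to 33.8, 44.6, 66.6 and 84.3 CPM (-1.98 ± 0.23 (SE, edgeR adjusted p = 0.00021)) and Pfkp fell by 2.3 ± 0.42 (SE, edgeR adjusted p = 0.0019), while Ldha rose by 0.89 ± 0.22 (SE, edgeR adjusted p = 0.008). Without the block 1 glycolysis gene was higher and 7 were lower, with Ldha at an edgeR adjusted p of 0.12, and 3 were higher without SL day 1.

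DNA methylation enzymes fell, 7 of 8, with a median of -1.70. Dnmt3l, a cofactor of de novo methylation, went from 416, 533, 334 and 384 CPM to 18.4, 23.3, 37.6 and 41.3 CPM (-3.83 ± 0.29 (SE, edgeR adjusted p = 3.9e-05)), and Tet1, an oxidase of methylcytosine, from 816, 579.6, 731 and 592 CPM to 88.9, 76.2, 93 and 114 CPM (-2.87 ± 0.16 (SE, edgeR adjusted p = 1.4e-05)). Tet3 was the exception, with 16.1, 16.1, 9.65 and 18.1 CPM and 55.3, 58.6, 47.9 and 56.6 CPM (1.88 ± 0.18 (SE, edgeR adjusted p = 9.3e-05)). The 3 enzymes were apart between the groups. Dnmt3b had been higher still at day 2, at 956 and 912 CPM.

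Imprinted genes rose in 14 of 17 and fell in 1. Nnat, neuronatin, was at 2.34, 5.77, 1.37 and 2.51 CPM and then at 305, 374, 43.6 and 41.3 CPM (5.57 ± 0.5 (SE, edgeR adjusted p = 7.1e-05)), and the maternally expressed RNA H19 at 4.82, 44.6, 10.2 and 14.6 CPM and 368, 734, 61.3 and 159.8 CPM (3.85 ± 0.73 (SE, edgeR adjusted p = 0.0022)). In both the late libraries from 2iL were the highest. Igf2 rose by 4.82 ± 0.68 (SE, edgeR adjusted p = 0.0005), Peg3 by 3.19 ± 0.22 (SE, edgeR adjusted p = 2.6e-05) and Mest by 2.41 ± 0.44 (SE, edgeR adjusted p = 0.0017), and Snrpn fell by 1.02 ± 0.12 (SE, edgeR adjusted p = 0.00024). Plagl1 rose by 3.58 ± 0.35 (SE, edgeR adjusted p = 0.00011) with overlapping groups, at 26.1, 10, 1.75 and 1.59 CPM and 277, 158, 25.1 and 14.8 CPM, since its early 2iL libraries were close to the late SL ones. Grb10 was at 56.6, 48.9, 656 and 446 CPM late (0.07 ± 0.53 (SE, edgeR adjusted p = 0.91)), far higher from SL than from 2iL.

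Of 11 regulators, targets and host genes of let-7 microRNAs, 6 were higher and 1 was lower, and 2 more host genes were not analysed here. Hmga2, a chromatin protein of fetal growth, rose from 13.8, 11.6, 10.5 and 9.96 CPM to 219.5, 83.9, 148 and 73.8 CPM (3.51 ± 0.34 (SE, edgeR adjusted p = 9.4e-05)) and Igf2bp3 by 1.37 ± 0.19 (SE, edgeR adjusted p = 0.0005). Trim71 fell by 0.71 ± 0.16 (SE, edgeR adjusted p = 0.0052). Without 2iL day 5, 2 were lower. Hmga2 was lower at day 7 than at day 5 (-1.17 ± 0.13 (SE, edgeR adjusted p = 0.0032)), while Mir99ahg, the host of a let-7 cluster, had no early read and was at 2.31, 2.22, 0.89 and 2.48 CPM late, at least 45.4-fold higher against the floor.

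The other days of the culture were used to time these changes. For each of 4750 genes that changed at least 2-fold without overlap, the first day was taken from which the mean of both media stayed past the midpoint between the early and late means on a log2 scale with 0.5 CPM added. Of 2935 genes that rose, 280 were past it from day 2 (9.54%), 732 from day 2.5 (24.9%), 965 from day 3 (32.9%), 939 from day 5 (32.0%) and 17 from day 7. Of 1815 that fell, 275 were past it from day 2 (15.2%), 377 from day 2.5 (20.8%), 632 from day 3 (34.8%) and 531 from day 5 (29.3%). By day 3, 67.4% of the rising and 70.7% of the falling genes had passed, and with the midpoint on the linear CPM scale 44.4% and 83.4%. These are descriptions without a test.

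**Figure D4:**
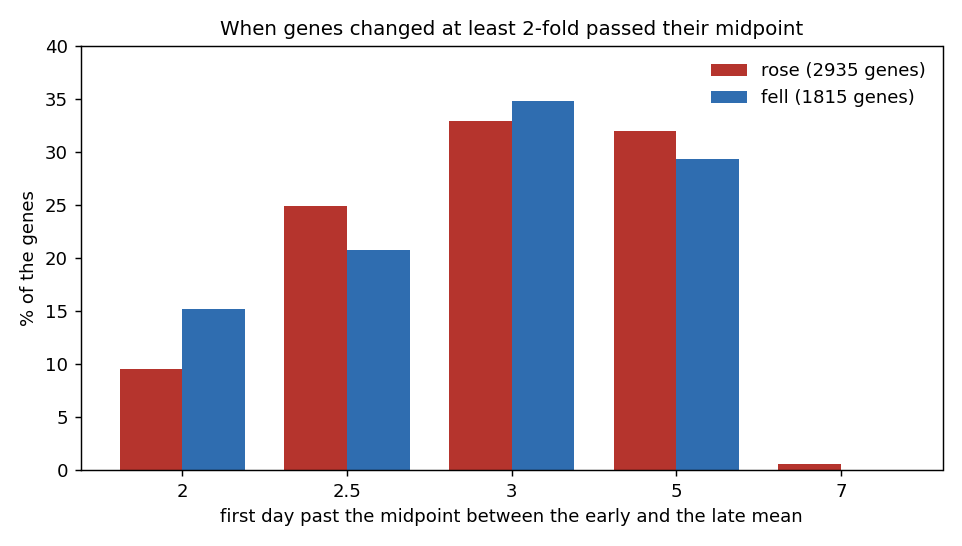
Share of the genes that rose (2935) and fell (1815) at least 2-fold, in percent, by the first day from which the mean of both media stayed past the midpoint between the early and the late level. The bars of day 3 stand at 32.9% and 34.8% and those of day 5 at 32.0% and 29.3%.

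By list, naive genes passed their midpoint first, 7 of 11 from day 2, with Esrrb among them (34.8 and 19.4 CPM at day 2). Of the 6 general pluripotency genes timed, 5 passed from day 3, Pou5f1 included. Of 14 neural progenitor genes, 10 had passed by day 3, near the share of 67.4% of all rising genes. Of the 22 proneural and neuronal genes, 16 passed only from day 5 or day 7. Among all rising genes 32.0% passed from day 5 and 0.579% from day 7. The 9 of 10 rising hindbrain and spinal cord genes that could be timed had passed by day 3. Ventral genes came late, 7 of 9 from day 5, against those 32.0% of all rising genes. Of 12 endoderm genes, 6 passed from day 5, with Cubn and Dab2 past the midpoint from day 2.5 and Col4a1 from day 5.

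The change was also compared between cells from 2iL and from SL. No gene of 15386 differed at an adjusted p under 0.05 (0% called by edgeR), while 1648 did at an unadjusted p under 0.05 and DESeq2's Wald test called 379. The smallest adjusted p was 0.0546, and leaving out 2iL day 5 or 2iL day 7 gave 85 and 94 calls. Each medium has 2 libraries a group in this test, and the count says nothing about equality. The change of Cubn, from 2iL minus from SL, differed by 5.21 ± 0.86 (SE, edgeR adjusted p = 0.078) on the log2 scale, and that of Col4a1 by 3.32 ± 0.83 (SE, edgeR adjusted p = 0.19). Both are genes whose early SL libraries were far above the early 2iL ones. For Sox1 the difference of the changes was -0.29 ± 0.9 (SE, edgeR adjusted p = 0.96) and for Dcx 1.83 ± 3.06 (SE, edgeR adjusted p = 0.91).

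The Neural culture shares its basal medium with the EpiSC culture, which adds Fgf2 and ActivinA. In 23 libraries of the 3 cultures, with 3 late EpiSC libraries because day 5 from 2iL was not analysed here, the late change differed between Neural and EpiSC for 593 of 15891 genes (3.73%), with 321 more positive in Neural (2.02%) and 272 more negative (1.71%). Leaving out 1 Neural library gave 299 to 705 genes, with under 350 without 2iL day 1, 1.5 or 7 or without SL day 1. Endoderm genes were 9 of the 321. Ttr, with the Neural values above, was at 0 to 6.91 CPM in early and 0.862 to 4.12 CPM in late EpiSC libraries, and its change was larger in Neural by 6.87 ± 1.58 (SE, edgeR adjusted p = 0.021). Ihh, a hedgehog ligand that visceral endoderm makes, went from 0.0477, 0, 2.14 and 1.28 CPM to 9.52, 29.8, 31.2 and 41.7 CPM in Neural and was at 0.203 to 0.675 CPM in late EpiSC libraries (6.6 ± 1.22 (SE, edgeR adjusted p = 0.0066)). The late levels of both were higher in every Neural library than in any EpiSC one. Cdh5 (6.69 ± 1.65 (SE, edgeR adjusted p = 0.031)), Ugt2b34, a glucuronosyltransferase (6.15 ± 1.37 (SE, edgeR adjusted p = 0.019)), the kinase Ptk6 (5.9 ± 1.44 (SE, edgeR adjusted p = 0.029)) and the nucleoside transporter Slc28a2 (6.29 ± 1.56 (SE, edgeR adjusted p = 0.032)) were the other largest differences toward Neural.

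Toward EpiSC lay Fgf feedback and Nodal genes. In the Fgf list 5 genes were more negative in Neural and 1, Fgfr3, more positive. Dusp6, a phosphatase that Fgf signalling induces, was at 93.2, 98.1, 104 and 128 CPM and 39, 52.9, 41.3 and 57.8 CPM in Neural and at 189 to 365 CPM in late EpiSC libraries (-2.06 ± 0.42 (SE, edgeR adjusted p = 0.013)). Etv4 differed by -2.49 ± 0.57 (SE, edgeR adjusted p = 0.02) and Spry2 by -1.22 ± 0.25 (SE, edgeR adjusted p = 0.012). Nodal itself differed by -2.93 ± 0.67 (SE, edgeR adjusted p = 0.021) and Foxh1 by -2.43 ± 0.37 (SE, edgeR adjusted p = 0.0023). The largest differences toward EpiSC were those of Col14a1, a fibril-associated collagen (-6.64 ± 0.57 (SE, edgeR adjusted p = 5e-06)), Gxylt2, a xylosyltransferase (-5.89 ± 1.4 (SE, edgeR adjusted p = 0.025)), Hoxa9 (-5.21 ± 1.4 (SE, edgeR adjusted p = 0.044)), Pgm5 (-4.73 ± 1.21 (SE, edgeR adjusted p = 0.037)), the potassium channel Kcnj3 (-4.08 ± 0.98 (SE, edgeR adjusted p = 0.027)) and the enkephalin precursor Penk (-4.03 ± 0.59 (SE, edgeR adjusted p = 0.0016)). Col14a1 stayed at or under 0.543 CPM in every Neural library of the comparison and was at 5.13 to 17.7 CPM in late EpiSC libraries.

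None of the 16 neural progenitor and none of the 28 neuronal genes differed from EpiSC at the threshold, where 3.73% of all genes tested did. At so low a share, lists of this size can hold no called gene, so the counts say little about these lists. Nes, for example, was at 132 to 194 CPM in late EpiSC libraries and its difference was 0.66 ± 0.5 (SE, edgeR adjusted p = 0.52). Sox1 gave 0.23 ± 1.03 (SE, edgeR adjusted p = 0.94) and Dcx 1.0 ± 1.94 (SE, edgeR adjusted p = 0.84). These intervals are wide, and the missed threshold does not show that the cultures were alike.

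Against EB, 1828 genes differed (11.5%), with 1036 more positive in Neural (6.52%) and 792 more negative (4.98%), and 1192 differed without 2iL day 7. Of the 9 mesoderm genes tested above, T and Eomes differed, and Mesp1 and Mixl1 of the list passed the filter on low counts only in this fit with the EB libraries. T, brachyury, was at 40.8 to 354 CPM in late EB libraries (-8.76 ± 1.22 (SE, edgeR adjusted p = 0.00047)), and Mesp1 at 0 to 0.0905 early and 1.87 to 8.36 late (-9.46 ± 2.12 (SE, edgeR adjusted p = 0.0099)). Mixl1 (-7.37 ± 1.51 (SE, edgeR adjusted p = 0.0045)), Cer1, a Nodal and Wnt antagonist (-7.13 ± 2.03 (SE, edgeR adjusted p = 0.029)), the Wnt agonist Rspo3 (-6.1 ± 1.27 (SE, edgeR adjusted p = 0.0049)) and Gabra3, a GABA receptor subunit (-5.06 ± 1.33 (SE, edgeR adjusted p = 0.02)) were the other largest differences toward EB.

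Among the largest differences toward Neural were neuronal genes. Myt1, a zinc finger factor of neuronal differentiation, went from 0.0954, 0.271, 0.384 and 0.0611 CPM to 4.5, 20.4, 3.0 and 14.7 CPM in Neural and was at 0.0721 to 0.234 CPM in late EB libraries (6.29 ± 1.42 (SE, edgeR adjusted p = 0.0083)). Every late Neural library was above every late EB one. Lrrn3 (7.28 ± 1.71 (SE, edgeR adjusted p = 0.011)), Clvs1 (7.27 ± 2.03 (SE, edgeR adjusted p = 0.026)), Akap6 (6.66 ± 1.07 (SE, edgeR adjusted p = 0.0011)) and Dbx1 (6.23 ± 1.93 (SE, edgeR adjusted p = 0.047)) were others of the largest. Of the lists, 6 of 28 neuronal genes (Nefm among them, 3.99 ± 0.79 (SE, edgeR adjusted p = 0.0038)), 5 of 15 endoderm genes (Hnf4a by 3.65 ± 0.93 (SE, edgeR adjusted p = 0.017)) and 3 of 18 Notch genes were more positive in Neural. The 3 were Dll4 (5.1 ± 0.86 (SE, edgeR adjusted p = 0.0014)), Nrarp (1.92 ± 0.54 (SE, edgeR adjusted p = 0.028)) and Lfng (2.2 ± 0.59 (SE, edgeR adjusted p = 0.022)).

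**Figure D5:**
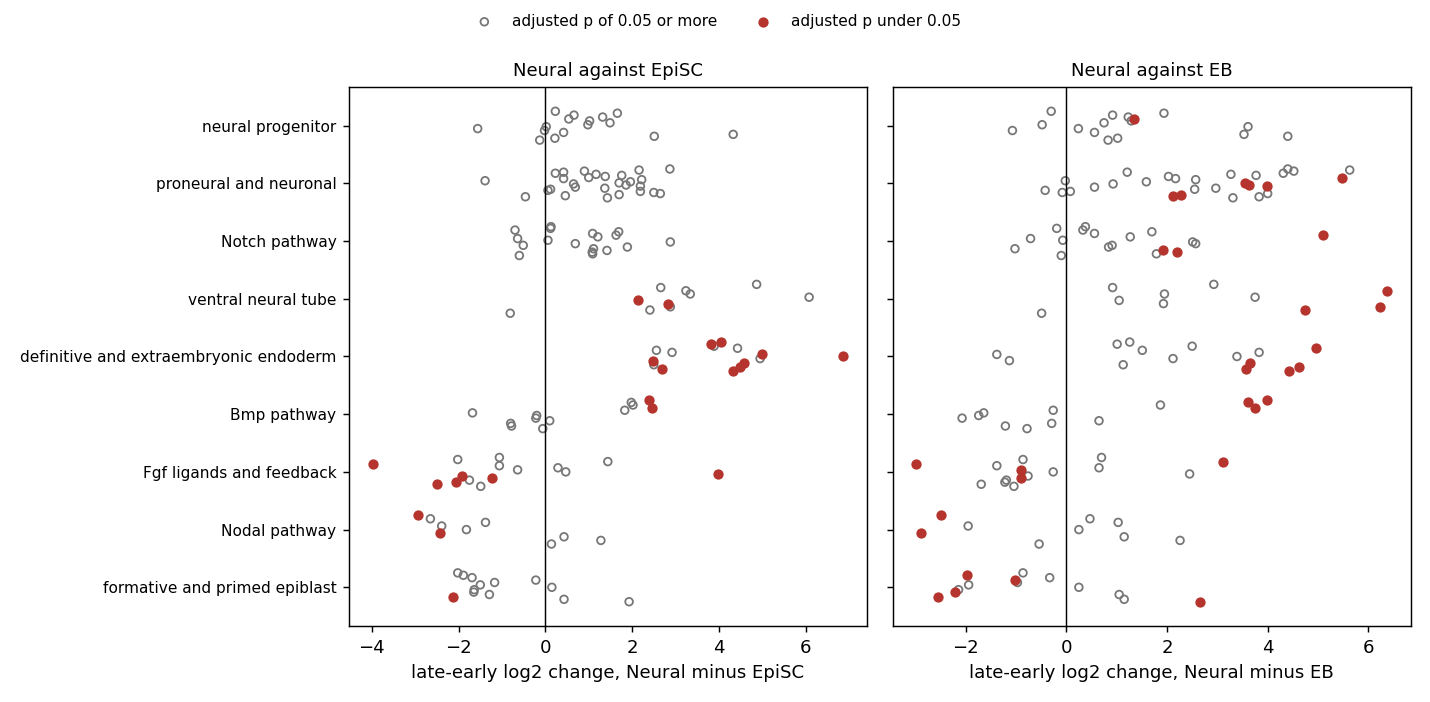
Difference of the late-early log2 change between Neural and EpiSC (left) and between Neural and EB (right) for the genes of 9 lists, with 1 point per gene and filled points at an adjusted p under 0.05. Endoderm genes lie to the right of 0 against EpiSC with 9 of 15 filled, and 5 of the 6 filled Fgf genes lie to the left.

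Day 7 differed from day 5 of the culture for 1867 of 15650 genes (11.9%), with 903 higher (5.77%) and 964 lower (6.16%) at day 7. The largest rises were of Mab21l2, a developmental regulator of eye and midbrain, which was at 0.0577, 8.4, 0.223 and 4.39 CPM late (5.42 ± 0.75 (SE, edgeR adjusted p = 0.0094)), Scg2, a granin of secretory vesicles (4.36 ± 0.6 (SE, edgeR adjusted p = 0.011)), and Syt4, a synaptotagmin (3.51 ± 0.72 (SE, edgeR adjusted p = 0.017)). In all 3 both day 7 libraries were above both day 5 libraries. Serpinb9g (4.2 ± 0.61 (SE, edgeR adjusted p = 0.014)), Gm16551 (3.38 ± 0.6 (SE, edgeR adjusted p = 0.012)) and the sarcomere gene Mybpc3 (3.2 ± 0.53 (SE, edgeR adjusted p = 0.01)) were the others of the 6.

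The largest falls were of genes that stood higher at day 5 than both early and at day 7. Ptn, the growth factor pleiotrophin, was at 0.238, 0.95, 0.329 and 1.28 CPM early and at 64.5, 9.75, 43.7 and 9.43 CPM late (-2.46 ± 0.26 (SE, edgeR adjusted p = 0.0032)), and Lix1 at 5.1, 4.34, 2.14 and 1.96 CPM and 66.7, 7.53, 18.8 and 3.4 CPM (-2.83 ± 0.32 (SE, edgeR adjusted p = 0.0032)). Rln1 and Insl6, relaxin family members, changed by -2.77 ± 0.56 (SE, edgeR adjusted p = 0.017) and -2.67 ± 0.53 (SE, edgeR adjusted p = 0.017), and the angiotensin receptor Agtr1a fell by 2.25 ± 0.58 (SE, edgeR adjusted p = 0.036) and Aldh1a7 fell by 2.63 ± 0.52 (SE, edgeR adjusted p = 0.015). Each of the 6 stood highest in 2iL day 5, followed by SL day 5. The count of 1867 moved with single libraries, with 43 genes without 2iL day 5, 57 without 2iL day 7 and 1184 without SL day 7.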

How the data were processed

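The authors trimmed reads with TrimGalore, mapped them with TopHat2 to GRCm38 and deposited raw strand-specific featureCounts read counts per gene for each library. Their DESeq2 normalization is not in these counts. Of 35372 features, 435 are tRNA features without a symbol and 34599 were found in GENCODE M21. TMM factors, CPM and fits were computed in R 4.3.3 with edgeR 4.0.16 (filterByExpr, robust quasi-likelihood test, Benjamini-Hochberg adjustment, threshold 0.05). Late was tested against early in the 8 libraries, day 7 against day 5 in 14 Neural libraries, and cultures in 23 libraries.

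Medium, given by the labels, was the replicate block. Deviations from the day mean correlated between days of the same medium (mean 0.518, 0.22 to 0.865 over 42 pairs and 13800 genes). Alternatives were DESeq2 1.42.0, its size factors, no filter, no block, single days, the spread of all days, each library left out, and for the timing other pseudocounts, the linear scale and each medium alone. Ratios for genes with at most 3 reads in a group carry exact 95% intervals for counting error only.

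The members and the 31 gene lists were chosen with earlier results of these data known. Named genes are list genes, the 12 largest rises and falls and 6 largest gains and losses in CPM among called genes with groups apart and a mean of at least 5 CPM, and the 6 largest differences each way of the other contrasts, and a few of them are not reported here. In simulated counts, genes were changed by 1 or 2 on the log2 scale. Recovery is the share called among those estimated in the right direction. Late against early recovered 64% and 92% with 5.45% of calls false (14644 genes). Neural against EpiSC recovered 32.7% and 71% with 1.9% false (15527). Day 7 against day 5 recovered 65.7% and 94% with 6.47% false (15203). Only 100 well-expressed genes of each size were changed, and libraries were drawn with no day or medium effect on their means. These rates therefore do not carry over to data in which 66.5% of genes were called.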

Additional observations from a re-analysis of the deposited data

Results flagged for a closer look

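In 72 groups of 4 libraries, those of the 24 genes with the largest rises or falls and of the 12 with the largest gains or losses in CPM, the library farthest from the others was compared with the range of its group by Dixon's criterion. An outlying library was found in 7 groups. The usual chance rate of about 1 in 20 is for continuous values, and it does not apply where several libraries are at 0. In 5 of them the outlying library held the only 1 or 2 reads of the early group, so the criterion was bound to mark it. SL day 1.5 was the highest early library for Pappa (0.0611 CPM), Celf3 (0.0611 CPM), Nhlh1 (0.0611 CPM) and Lsamp (0.0611 CPM), and SL day 1 for Tenm2 (0.110 CPM). In the late group SL day 5 stood apart for Prss46 (0.111 CPM) and Nlrp4a (0.167 CPM). All 7 values lie at or under the level of 3 counts in these libraries.

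The change from early to late was not the same in the 3 cultures. By edgeR's interaction test, 593 genes differed between Neural and EpiSC and 1828 between Neural and EB at an adjusted p under 0.05. Both comparisons use the same Neural libraries.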

How the results depend on the processing

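The 8 libraries are 2 days from 2 media with 1 library each, so a day or medium effect and library error cannot be told apart, and genes near 0.2 CPM rest on a few reads. Of 439 named genes with a test, 432 kept direction and call with DESeq2, all 439 with its size factors, 427 without the filter, 397 without the replicate block (21 lost and 4 gained a call) and 410 to 421 with 1 library left out. Only day 5 against day 1.5 kept 348, and only day 7 against day 1 kept 376. The median change of all genes stayed within -0.006 and 0.032 in these fits.

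Genes called between late and early numbered 9402 without the replicate block (4799 higher, 4603 lower), 9858 with DESeq2 size factors, 10037 with DESeq2, 10334 without the filter, 11662 with the spread of 14 libraries, 8985 to 10147 with 1 library left out, and 7553 for day 7 against day 1. Only day 5 against day 1.5 gave 3012 higher and 2765 lower. For 2iL against SL, the count of 0 became 379 with DESeq2, 115 without the filter and 0 to 94 with 1 library left out. For EpiSC it was 1046 with DESeq2, 255 without the replicate block and 299 to 705 with 1 library left out, and for EB 1204 without the block and 1192 to 2003. For day 7 against day 5 it was 396 without the replicate block and 43 to 1947 with 1 library left out. The share of changed genes past their midpoint by day 3 was 68.7%, and 59.3% on the linear CPM scale, where rising genes went from 67.4% to 44.4% and falling genes from 70.7% to 83.4%. Among rising genes day 5 held more than day 3 on that scale (46% against 27.3%), with a pseudocount of 2 CPM (35.5% against 32.3%) and in SL alone (32.8% against 27.4%), and among falling genes in SL alone (29.4% against 28.9%). Dcn turned from -0.34 to 3.13 (edgeR adjusted p = 0.033) with only day 7 against day 1. The causes were not tested.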
